A study of Homo sapiens with 4 samples.

Results

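The 10 AP-1 transcription factor genes FOS, FOSB, FOSL1, FOSL2, JUN, JUNB, JUND, ATF3, JDP2 and BATF3 were followed in HepG2 cells treated with AMF. They were taken by gene symbol from a table of 30863 genes, and all 10 had a row. HepG2 is an established human liver cancer line, which the labels call hepatoblastoma and wild type. A control group received the solvent DMSO and the other group AMF, for amentoflavone, a plant biflavonoid named in the study's title, both for 48 h. Each group had 2 libraries of poly(A)-selected RNA, made without keeping strand. The agent and its dose are uncertain, because 90 µM AMF stands in the treatment protocol but Tub B at 80 µM in the design text. AMF here is the name of the group. Results hold for a single cell line.

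AP-1 is not a single protein but a family of dimers. FOS and JUN proteins pair through a leucine zipper and bind short DNA elements with the adjoining basic region. JUN proteins can pair with each other, while FOS proteins as a rule need a JUN partner, and ATF3, JDP2 and BATF3 are smaller family members that often repress when they enter such dimers. FOS, FOSB, JUN, JUNB and ATF3 are known as immediate-early genes, switched on within minutes by growth factors and stress through MAP kinases. In liver, JUN is known for its roles in hepatocyte proliferation and survival.

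Some AP-1 genes carry AP-1 or CRE-type elements in their own promoters, and the matches found are shown to set beside the members' changes. RefSeq promoter windows on GRCh38.p14, from 250 bases before to 50 bases after a start site, were found for 8 of the 10 members in 11 windows. FOSL1 and BATF3 had none. Windows were searched on both strands for TGACTCA (the classical AP-1 element), TGACGTCA (the cAMP response element), TGACATCA (a variant of both) and GCGTG (the core of the element bound by the aryl hydrocarbon receptor). No matches overlapped. The first 3 motifs stood in 4.95%, 1.85% and 2.61% of all 35116 windows, and GCGTG in 36.5%. The stretches with a match to one of the first 3 are given 5′ to 3′ on the gene's strand, with the match in capitals. They lie at chr1:58784077-58784144 (minus strand) for JUN, chr19:18281785-18281852 (minus strand) for JUND, chr2:28392832-28392877 (plus strand) for FOSL2 and chr1:212565254-212565321 (plus strand) for ATF3.
JUN: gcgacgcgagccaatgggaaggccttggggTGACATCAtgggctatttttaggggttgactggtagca
JUND: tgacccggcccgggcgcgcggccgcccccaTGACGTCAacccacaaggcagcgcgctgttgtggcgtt
FOSL2: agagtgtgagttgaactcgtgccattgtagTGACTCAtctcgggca
ATF3: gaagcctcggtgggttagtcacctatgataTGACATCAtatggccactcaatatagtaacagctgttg
The match began 67 bases before the start site in JUN, 200 before in JUND and 123 before in 1 of the 2 ATF3 windows, and at base 5 after it in FOSL2. FOS, FOSB, JUNB and JDP2 had no exact match to these 3 motifs in their windows. Near matches, with a base changed, were not searched for, so related elements may be present. Read by eye, the FOSB window holds tgacgtaa and a JDP2 window tgacgtct. Both differ from TGACGTCA by a single base. GCGTG was found once each in the windows of FOS, FOSB and JUN and in 1 of 3 of JDP2, and 3 times in that of JUNB. A match is a run of letters, and binding was not measured.

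Levels are normalized counts, which are reads divided by a size factor per library. A change is the mean of log2(normalized count + 1) in AMF minus that in DMSO, with its standard error (SE). The p-values come from limma, fitted to the 23828 genes whose mean reached 1 normalized count, and are adjusted over all of them. All 10 members reached that mean. A change was called at an adjusted p under 0.05. Reads in genes ranged from 24226586 to 26966210 per library. Within a pair the libraries differed beyond sampling noise, with a chi-square of 4.02 per degree of freedom for DMSO and 2.27 for AMF. Nothing in the labels says that they were separate cultures, so the p-values cover just the spread among these 4 libraries, possibly a technical one. In bulk RNA, fewer cells that express a gene and less of its RNA per cell cannot be told apart. The 8 hepatocyte markers (ALB, AFP, APOB and others) were all expressed, with sums of 468300 and 456600 normalized counts in DMSO and 364900 and 345800 in AMF. The summed level of 6 stromal markers was 195 to 211 in DMSO and 25.8 to 36.2 in AMF, mostly COL1A1 and PDGFRB, with COL1A2, COL3A1, DCN and LUM at or near 0. That of 5 endothelial markers was 159 to 188 and 292 to 320, mostly PECAM1, with KDR and TEK near 0. Of 5 immune markers 4 had a row, with sums of 35.0 to 45.2 and 63.9 to 65.9, mostly CD79A and CD14. Mitochondrially encoded genes took 7.69% to 7.73% of reads in DMSO and 9.53% to 9.61% in AMF. The part of these differences in the results was not tested.

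FOS, FOSB, FOSL1 and JUND rose with AMF, and JDP2 and FOSL2 fell. Among the 10 members, 4 were thus called higher, 2 lower and 4 did not pass. Of all genes tested, 31.8% were called, 15.6% higher and 16.2% lower. Calls were more frequent among better expressed genes, where most members stand. A limma fit limited to genes with a mean of at least 10 called 7752 of 15845, and 7 members, JUNB included. Voom, fitted to the recovered reads, also called the 6 members named above, with adjusted p from 2.04e-12 (JDP2) to 0.00854 (FOSL2). In 8 members both AMF libraries lay on one side of both DMSO libraries, which held for 63.4% of all genes tested. The median change of the members was 0.35, beside 0.04 for all genes. The largest rise was that of FOSB and the largest fall that of JDP2. The 4 members with one of the printed promoter matches (JUN, JUND, FOSL2 and ATF3) had log2 changes from -0.25 to 0.30. FOS, FOSB, JUNB and JDP2, whose windows held no such exact match, had 1.40, 1.82, 0.39 and -1.64. FOSL1 and BATF3, for which no window was found, had 0.99 and 0.74. The grouping rests on exact matches alone, and windows of FOSB and JDP2 held near matches to TGACGTCA. No test was made of this grouping.

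**Figure D1:**
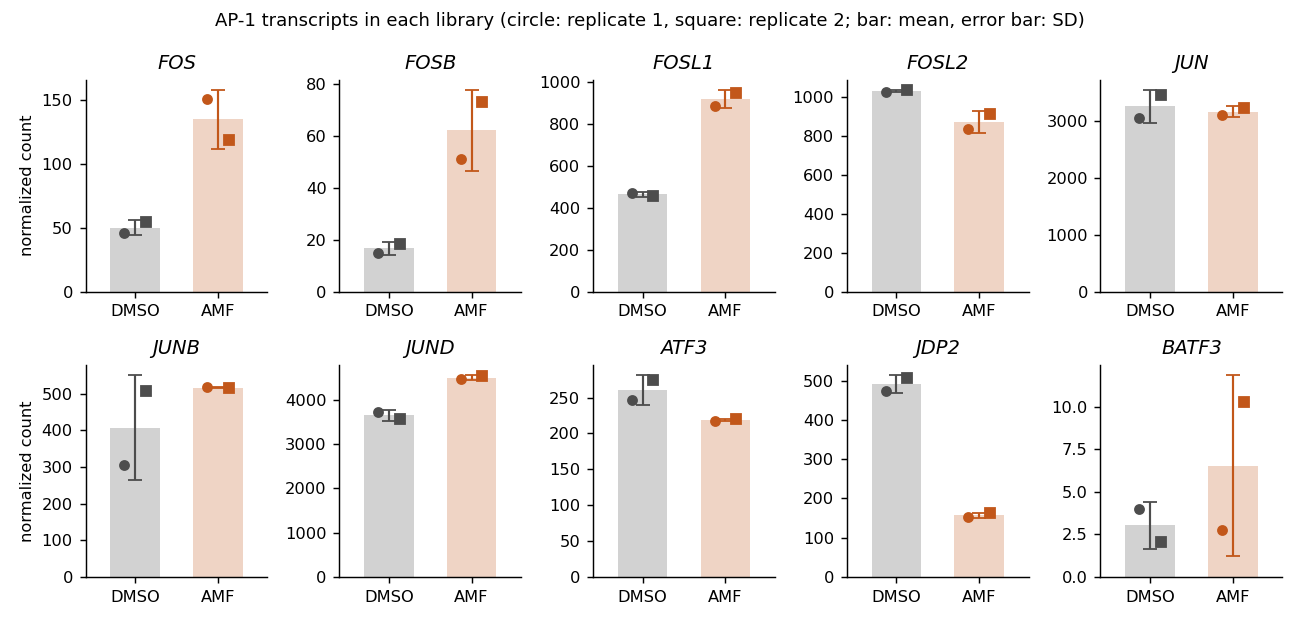
Normalized counts of each AP-1 gene on a linear axis from 0, by group. Circles are replicate 1 and squares replicate 2, bars are means and error bars SD (n = 2); FOSB rose from 15.0 and 18.5 to 51.1 and 73.1 and JDP2 fell from 475 and 507 to 151 and 162, while JUNB was low in DMSO replicate 1 alone.

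The FOS proteins are the partners that AP-1 dimers gain upon stimulation. FOS itself, the founding member, had 46.0 and 54.4 normalized counts in DMSO replicates 1 and 2 and 151 and 118 in AMF replicates 1 and 2. Both AMF libraries were far above both controls. The mean went from 50.2 ± 5.96 to 134.9 ± 23.3 (SD, n = 2), a log2 change of 1.40 (SE 0.204, limma adjusted p = 8.48e-05). The ratio of reads was 2.71, with a 95% exact interval of 2.15 to 3.44 that covers counting error only.

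FOSB, a close relative that also has a truncated splice form, had 15.0 and 18.5 normalized counts in DMSO and 51.1 and 73.1 in AMF. Its groups did not overlap, although the AMF libraries differed between themselves by 0.51 on the log2 scale. The log2 change was 1.82 (SE 0.315, limma adjusted p = 4.00e-04), with 15 and 18 reads behind the control values. From the reads alone the ratio was 3.68, with an interval of the same kind from 2.49 to 5.58.

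FOSL1, which encodes FRA-1, a FOS protein without the strong activation domain of FOS, had 472 and 454 in DMSO and 887 and 949 in AMF. Its level doubled, as the mean went from 463 ± 12.8 to 917.8 ± 43.8, a 1.98-fold difference. The log2 change was 0.99 (SE 0.0779, limma adjusted p = 2.30e-07), about 10 times the gap of 0.10 between the AMF libraries. FOSL2, which encodes FRA-2, moved the other way, from 1025 and 1034 in DMSO to 833 and 912 in AMF. This fall was small, with a log2 change of -0.24 (SE 0.0704, limma adjusted p = 0.0170), and the groups did not overlap.

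The FRA genes thus moved apart. Per kb of exon, FOSL1 stood above FOSL2 in every library, by log2 ratios of 0.80 and 0.74 in DMSO and 2.01 and 1.98 in AMF. An exact two-sided permutation test of this ratio gave p = 0.33, the smallest that 2 libraries against 2 can give. The level of FOSB relative to FOS, per kb, was alike in DMSO replicate 1, DMSO replicate 2 and AMF replicate 1 (log2 ratios of -2.40, -2.34 and -2.35) and higher in AMF replicate 2 (-1.47), so these groups overlapped.

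The JUN proteins are the usual partners of FOS proteins. JUND, which is expressed in resting cells and often counters growth, had 3726 and 3563 in DMSO and 4461 and 4537 in AMF. The rise was modest and even across the libraries, with a log2 change of 0.30 (SE 0.0468, limma adjusted p = 1.42e-04). JUN, the strongest activator of the family, had 3065 and 3473 in DMSO and 3108 and 3242 in AMF. Its AMF libraries lay between the DMSO libraries, and the log2 change of -0.04 (SE 0.0594, limma adjusted p = 0.670) did not pass.

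JUNB, a JUN protein that often restrains JUN, had 306 and 508 in DMSO and 517 and 515 in AMF. DMSO replicate 2 was close to both AMF libraries, and DMSO replicate 1 alone was low. The log2 change was 0.39 (SE 0.163, limma adjusted p = 0.0892), and it was 0.02 without DMSO replicate 1 and 0.75 without DMSO replicate 2. A voom fit on the reads put JUNB past the threshold (adjusted p = 0.0173), as did a limma fit with the replicate number as a block (adjusted p = 4.16e-04). In the block fit the prior degrees of freedom, the weight of all genes in each gene's variance, were infinite. The spread of JUNB itself, with the gap between its DMSO libraries, thus did not enter the variance behind that p-value. Exons of JUNB overlap those of HOOK2 on the opposite strand over 259 bases in GENCODE release 29, and reads of both genes cannot be told apart there.

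ATF3, JDP2 and BATF3 are the members known mainly as repressors. JDP2, the Jun dimerization protein, had 475 and 507 in DMSO and 151 and 162 in AMF. All 4 libraries were close to their group mean, 491 ± 22.9 against 156 ± 7.34, a 3.14-fold difference. The log2 change was -1.64 (SE 0.109, limma adjusted p = 3.81e-08), and it stayed between -1.70 and -1.60 with any 1 library left out. Exons of JDP2 overlap those of the antisense gene AF111167.2 over 26 bases in the same annotation.

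ATF3, a stress-induced gene, had 246 and 275 in DMSO and 217 and 219 in AMF, with groups that did not overlap but a log2 change of -0.25 (SE 0.117, limma adjusted p = 0.124) that did not pass. Per kb of exon, JDP2 stood above ATF3 in both DMSO libraries (log2 ratios of 0.32 and 0.26) and below it in both AMF libraries (-1.15 and -1.07). BATF3, known from dendritic cells, was barely detected, with 4 and 2 reads in DMSO and 3 and 10 in AMF. Its log2 change of 0.74 (SE 0.729, limma adjusted p = 0.490) did not pass. The read ratio of 2.09 had a 95% exact interval of 0.741 to 6.70 for counting error only.

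**Figure D2:**
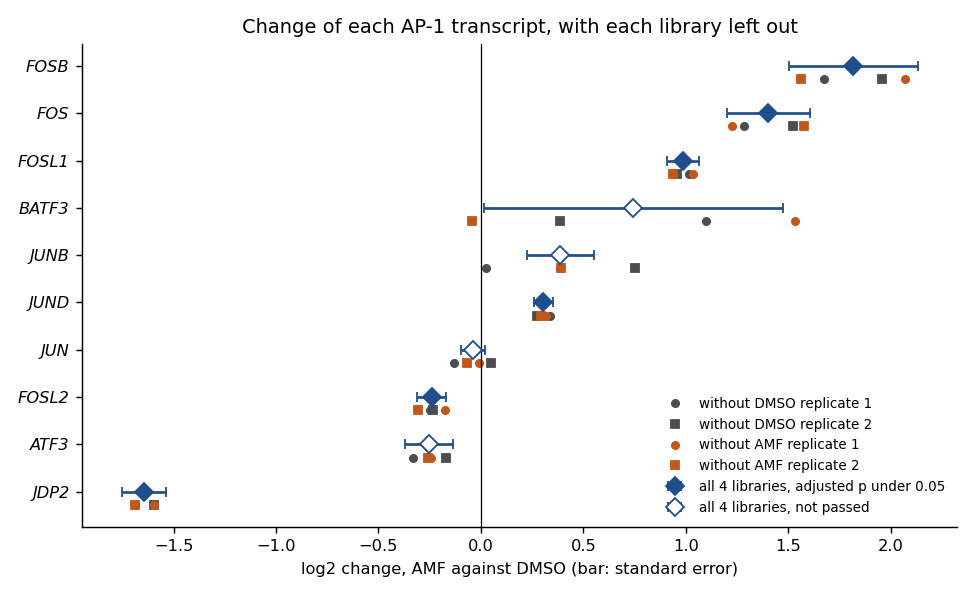
Log2 change of each AP-1 gene, AMF against DMSO. Diamonds with SE bars use all 4 libraries (filled where adjusted p was under 0.05), and the smaller points leave out 1 library each; JDP2 stayed between -1.70 and -1.60, whereas JUNB moved from 0.02 to 0.75.

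The calls depended on the number of libraries and on the tool, while the log2 changes of the 6 called members kept their sign. With a library left out, the lone library of its group is assumed to vary like those of the other. With limma, FOSL1, JUND and JDP2 passed without DMSO replicate 1, and FOS, FOSL1, JUNB, JUND and JDP2 without DMSO replicate 2. FOSB (adjusted p = 0.0691 and 0.0559 by limma) and FOSL2 (0.149 and 0.167) thus did not pass without DMSO replicate 1 or without DMSO replicate 2, and FOS (0.0539) not without DMSO replicate 1. Without AMF replicate 1 or AMF replicate 2, 0 members and 0 of all genes passed, while 6575 and 6387 genes had an unadjusted p under 0.05. With voom, FOSL1 and JDP2 passed without AMF replicate 1, and FOS, FOSL1 and JDP2 without AMF replicate 2. For voom without DMSO replicate 1 or without DMSO replicate 2, the prior degrees of freedom were infinite. Each variance then came from all genes together, so these fits could not show whether the 6 calls hold. JUN had a log2 change of -0.13 with voom without DMSO replicate 1.

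Compared per length, the members spanned about 3 orders of magnitude. Lengths were unions of all annotated exons in GENCODE release 29, which may exceed the transcripts made in HepG2. In DMSO the order of levels per kb of exon was JUND (1956 ± 61.9), JUN (924 ± 81.6), FOSL1 (245 ± 6.76), JUNB (224 ± 78.6), FOSL2 (144 ± 0.912), JDP2 (78.8 ± 3.67), ATF3 (64.5 ± 5.12), FOS (15.5 ± 1.84), FOSB (3.01 ± 0.444) and BATF3 (1.11 ± 0.507). FOSL1 and JUNB could not be ordered there, since JUNB had 168 and 279. The other neighbours were apart in both libraries.

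In AMF the first 5 places were the same, with JUND at 2415 ± 28.8, JUN at 897 ± 26.8, FOSL1 at 486 ± 23.2, JUNB at 284 ± 0.829 and FOSL2 at 122 ± 7.78 per kb. JDP2 dropped from place 6 to place 8, at 25.1 ± 1.18, behind ATF3 (54.1 ± 0.374) and FOS (41.7 ± 7.18). FOSB (11.2 ± 2.81) and BATF3 (2.41 ± 1.96) closed the order. JUND made up 51.3% to 56.0% of the summed level per kb in all 4 libraries, and JUN 24.2% and 26.3% in DMSO and 20.5% and 20.8% in AMF. The share of FOSL1 was 6.98% and 6.45% in DMSO and 11.0% and 11.4% in AMF.

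**Figure D3:**
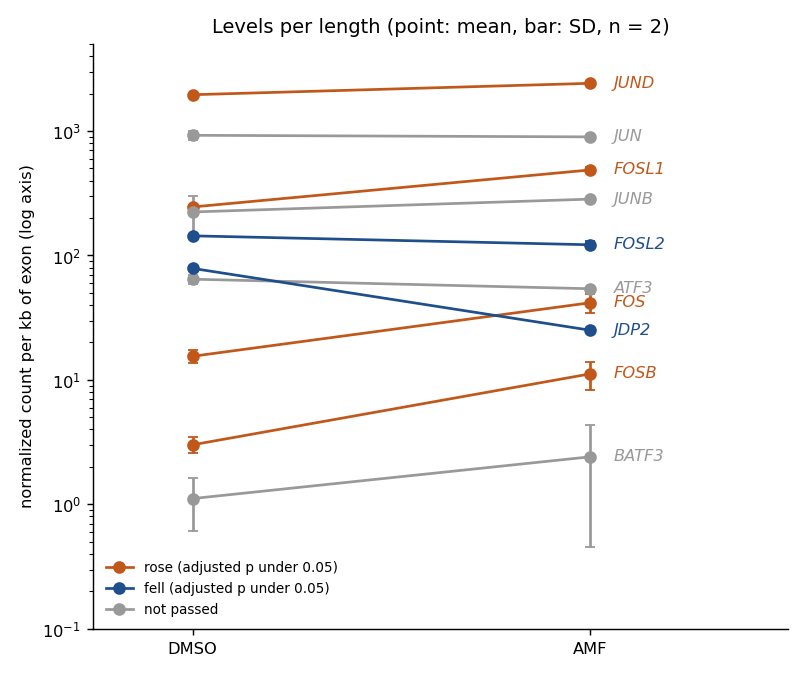
Level of each AP-1 gene per kb of exon on a log axis, as group means with SD bars (n = 2), joined from DMSO to AMF and coloured by call. JUND and JUN lead in both groups, and the line of JDP2, falling from 78.8 to 25.1, crosses those of ATF3 and FOS.

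Sums over subfamilies separated the groups in each case, as held for 63.4% of all genes tested singly. Within the FOS family the rise per kb lay mostly in FOSL1 (means of 245 in DMSO and 486 in AMF). FOSL2 fell (144 and 122). Within the JUN family it lay mostly in JUND (1956 and 2415), with JUN at 924 and 897. The fall of the third sum lay mostly in JDP2 (491 and 156.5 normalized counts). FOS family levels per kb came to 410 and 405 in DMSO and to 642 and 680 in AMF, and JUN family levels to 3034 and 3173 and to 3557 and 3634. The JUN to FOS ratio per kb was 7.40 and 7.83 in DMSO and 5.54 and 5.34 in AMF. ATF3, JDP2 and BATF3 together had 725 and 784 normalized counts in DMSO and 371 and 392 in AMF, a log2 ratio of group means of -0.98. For the FOS and JUN families the log2 ratios of summed normalized counts were 0.35 and 0.16, and those of the sums per kb 0.70 and 0.21. The groups did not overlap in any of these sums, and exact two-sided permutation tests gave p = 0.33 each, the smallest possible for 2 against 2.

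JUNB was among the genes that differed most between the control libraries. It was 0.73 higher on the log2 scale in DMSO replicate 2, a gap reached by 17 of the 11137 genes whose mean was 100 normalized counts or more, where the median absolute gap was 0.08. EGR1, an immediate-early zinc finger gene singled out after its values were seen, showed a gap of 0.71, with 243 and 398 in DMSO and 356 and 335 in AMF. Of the 23 listed immediate-early genes outside AP-1 with such a mean, EGR1 included, 17 were higher in DMSO replicate 2. Their median gap was 0.13. Among all genes of that mean 47.6% were higher there, with a median of -0.01. For JUN and JUNB the change with AMF did not exceed the gap inside the DMSO pair, and for the other members it did. The share of all genes for which it did was not counted, so nothing particular to AP-1 genes can be read from this. Those other members include BATF3, with 4 and 2 reads in DMSO. Its change was 0.74, its DMSO gap 0.71 and its AMF gap 1.58. For ATF3 the change was -0.25 and the gap 0.16.

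**Figure D4:**
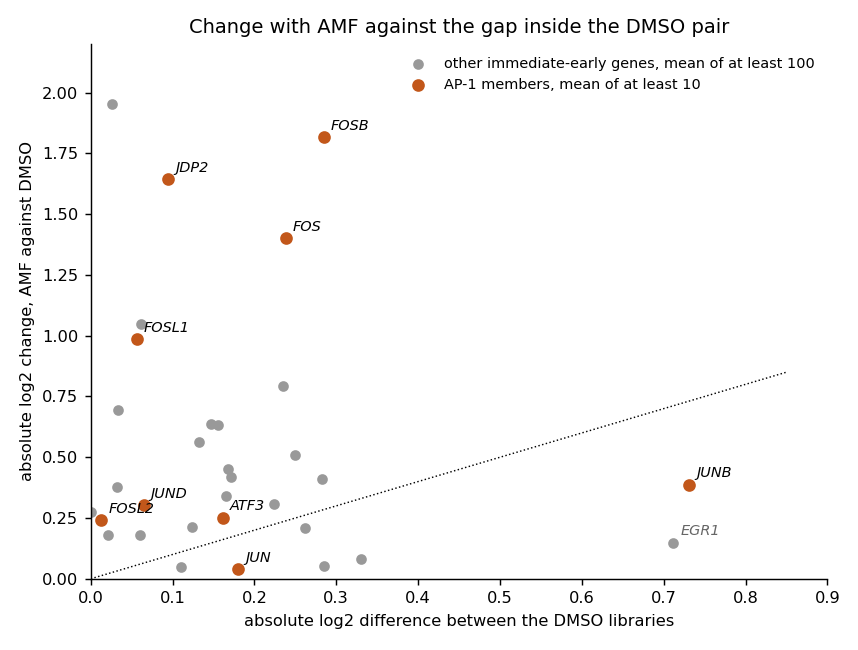
Absolute log2 change with AMF against the absolute log2 difference between the DMSO libraries, for the AP-1 members except BATF3 (mean under 10 normalized counts) and other immediate-early genes whose mean was 100 or more. The dotted line marks equality; JUNB and EGR1 lie far to the right, at gaps of 0.73 and 0.71, and JUN and JUNB fall under the line.

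Other basic leucine zipper factors, only some of which can pair with FOS or JUN proteins or bind related sites, were measured as a separate list. Of 35 tested, 6 rose, 14 fell and 15 did not pass, with a median of -0.18. Counts here and in the lists below stand beside the 31.8% called among all genes tested. Limited to a mean of at least 10, limma called 7752 of 15845 genes. MAF, a large Maf protein, had 23.8 ± 4.57 in DMSO and rose to 79.4 ± 21.7 in AMF (1.69, SE 0.287, limma adjusted p = 3.40e-04). BATF, the relative of BATF3 known from lymphocytes, rose by 0.93. The stress factor DDIT3 (CHOP) fell by 0.80 and the photoreceptor factor NRL by 0.97, from 44.2 ± 11.6 to 21.9 ± 3.23. The NRL call (limma adjusted p = 0.0329) ended with a pseudocount of 0.1 (0.0509), with no filter (0.0707) and with any 1 library left out (0.101 to 0.336).

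MAP kinases phosphorylate JUN and FOS proteins and induce their genes. Of 30 tested genes of these cascades, 8 rose, 14 fell and 8 did not pass (median -0.16). The p38 kinase gene MAPK11 rose by 0.84 and MAP2K3, an activator of p38, by 0.62. MAP2K6, the other main p38 activator, fell from 639 ± 83.9 in DMSO to 277 ± 37.6 in AMF (-1.20, SE 0.115, limma adjusted p = 1.59e-06), and RPS6KA5, which encodes the chromatin kinase MSK1, fell by 1.83. Of 10 phosphatases that switch MAP kinases off, 1 rose, 6 fell and 3 did not pass (median -0.20). DUSP8 rose by 0.39, and DUSP4 and DUSP10 fell by 0.91 and 0.77.

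Of 16 regulators that induce FOS and JUN or control the life and activity of their proteins, 1 rose, 9 fell and 6 did not pass (median -0.22). FBXW7, a ubiquitin ligase subunit that marks JUN for degradation, rose by 0.30. CITED2, a coactivator-binding protein, fell from 348 ± 50.03 in DMSO to 140 ± 6.85 in AMF (-1.30, SE 0.131, limma adjusted p = 2.84e-06), and the ubiquitin ligase subunit DET1 by 1.26, with 24.9 ± 6.92 normalized counts in DMSO. The DET1 call (limma adjusted p = 0.0363) ended with a pseudocount of 0.1 (0.0543), with no filter (0.0763) and with any 1 library left out (0.116 to 0.299).

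Of 31 other immediate-early genes tested, 14 rose, 7 fell and 10 did not pass (median 0.18). ARC, a synaptic plasticity gene, had 1 and 0 reads in DMSO and 51 and 61 in AMF, a ratio of 108.0 with a 95% exact interval of 19.0 to 4303. That interval covers counting error only, and the voom adjusted p was 1.57e-04. KLF4, a zinc finger factor, rose by 0.93 (limma adjusted p = 0.0254), a call that ended with no filter (0.0518) and with any 1 library left out (0.109 to 0.261 by limma, 0.0582 to 0.154 by voom). The kinase gene SGK1 fell from 697 ± 9.04 in DMSO to 179 ± 5.56 in AMF (-1.95, SE 0.0959, limma adjusted p = 1.89e-09) and the orphan nuclear receptor gene NR4A1 by 1.05.

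Of 32 genes known as AP-1 targets, 17 rose, 5 fell and 10 did not pass, with a median of 0.72 beside 0.04 for all genes. MMP1, the interstitial collagenase whose promoter was a classical AP-1 reporter, had 2 and 3 reads in DMSO and 108 and 124 in AMF. The ratio was 44.7, with a 95% exact interval of 18.9 to 139 for counting error only (voom adjusted p = 7.64e-07). AREG, the EGF receptor ligand amphiregulin, had 154 ± 31.6 in DMSO and rose to 767.5 ± 48.0 in AMF (2.32, SE 0.127, limma adjusted p = 5.64e-09). VEGFA, the vascular growth factor, fell from 5849 ± 213 to 2425 ± 18.4 (-1.27, SE 0.0479, limma adjusted p = 1.44e-10), and BCL2L11, which encodes the death effector BIM, fell by 0.49. Many genes on this list also answer to other factors, such as NRF2 for NQO1 and HMOX1 and hypoxia-inducible factors for VEGFA. Exons of NRL, DDIT3, RPS6KA5, NR4A1, FBXW7, DET1, MMP1, VEGFA and BCL2L11 overlap those of another gene, whose reads there cannot be told apart.

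**Figure D5:**
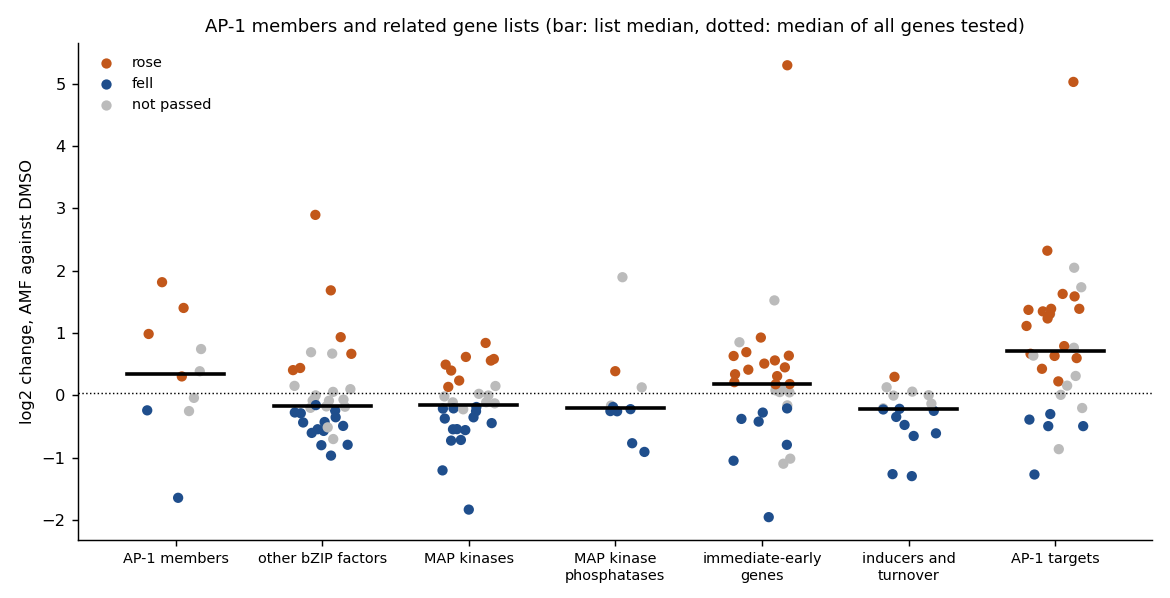
Log2 change with AMF of the AP-1 members and of the tested genes of 6 related lists, each point a gene coloured by call, with horizontal jitter for legibility only. Bars are list medians, from -0.22 for inducers and turnover to 0.72 for AP-1 targets, and the dotted line is the median of all genes tested.

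By profile over the 4 libraries, measured as Euclidean distance between log2 values centred on each gene's mean, the nearest of 11137 genes to JDP2 were AMOTL2 (distance 0.02), ARG2 (0.08) and SMIM3 (0.14). The nearest to FOSB were NTSR1 (0.31), LOXL2 (0.31) and AGPAT9 (0.32). AMOTL2 had 1227 and 1333 normalized counts in DMSO and 390.0 and 421 in AMF. The distance includes the gaps inside each pair, so likeness there follows from how these genes were picked.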

How the data were processed

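The submitters' processing notes name STAR 2.7.0, featureCounts and genome build hg19. The authors deposited log2-scale values for 30863 genes in 4 libraries; how reads were filtered and values normalized was not given in the sources used here. All libraries share a lowest value of 6.01 and follow the curve of a variance-stabilizing transformation, as read from the values. Inverted, 100% of them were whole reads within 0.01, each divided by a size factor. 0 columns of other samples were present.

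Because the unit was log2, the main test was limma-trend (limma 3.58.1, R 4.3.3) on log2(normalized count + 1), for genes with a mean of at least 1, with the group as sole term and Benjamini-Hochberg adjustment over all genes. It was also run on simulated counts that gave all genes a single dispersion, and no result here rests on that run. Voom on the recovered reads was an alternative, beside a pseudocount of 0.1, no filter or a mean of at least 10, the deposited values, library totals, each library left out and the replicate block; voom with a library left out was added after seeing the data. The fold on the main scale understates changes of low genes. The members and lists were chosen with earlier results of these data known. Beside the 10 members, the 2 largest called rises and falls of each list with a mean of at least 10 are named, and the 3 genes of a mean of at least 100 nearest in profile to the members that rose and fell most. Lengths and overlaps came from GENCODE release 29 on another build, so no gene coordinates are used; promoters came from RefSeq. Exact tests used scipy 1.17.1, and figures matplotlib 3.10.9.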

Additional observations from a re-analysis of the deposited data

How the results depend on the processing

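FOS, FOSB, FOSL1, FOSL2, JUND and JDP2 kept their direction and their call with a pseudocount of 0.1, no filter, a mean of at least 10, the deposited values, voom, library totals and the replicate block, and JUN, ATF3 and BATF3 passed in none of these in which they were tested. JUNB, not called with all libraries by limma-trend, passed where genes under a mean of 10 were dropped (0.39, adjusted p = 0.0348), with voom (0.39, 0.0173) and with the replicate block (0.39, 4.16e-04). The replicate number is shared by the groups in the labels only: deviations of same-numbered libraries correlated at 0.02 over 11137 genes. The block raised the genes called from 7578 to 8157 and ended no member's call. With infinite prior degrees of freedom, its p-values, that of JUNB included, leave out each gene's own spread.

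With 1 library left out, limma-trend gave log2 changes of 1.23 to 1.58 for FOS, 1.56 to 2.07 for FOSB, 0.94 to 1.03 for FOSL1, -0.31 to -0.17 for FOSL2, -0.13 to 0.0506 for JUN, 0.0223 to 0.75 for JUNB, 0.27 to 0.34 for JUND, -0.33 to -0.17 for ATF3, -1.6904 to -1.60 for JDP2 and -0.0454 to 1.53 for BATF3. JUN turned positive without DMSO replicate 2 (0.0506, voom 0.0493) and BATF3 negative without AMF replicate 2 (-0.0454, voom -0.0697); neither was called with all libraries. Limma-trend then called 0 to 3531 genes, 0 to 1753 higher and 0 to 1780 lower, 0 to 4 members higher and 0 to 1 lower, and 0 to 10 other leucine zipper factors, 0 to 13 MAP kinase genes, 0 to 3 phosphatases, 0 to 14 immediate-early genes, 0 to 4 inducers and turnover genes and 0 to 16 AP-1 targets. Each 0 arose without an AMF library, where the prior degrees of freedom fell from 11.9 to about 1. Without AMF replicate 1, and likewise without replicate 2, voom called 1379 and 1315 genes, 667 and 636 higher and 712 and 679 lower, with 1 and 2 members higher and 1 and 1 lower. In the lists it called 4 and 4 leucine zipper factors, 4 and 4 MAP kinase genes, 0 and 0 phosphatases, 3 and 2 immediate-early genes, 2 and 1 inducers and 13 and 11 targets. There FOS had 1.2371 and 1.59, FOSB 2.10 and 1.59, FOSL2 -0.17 and -0.31, and JUND 0.3163 and 0.2919. Voom without a DMSO library gave -0.13 for JUN without replicate 1 and 0.75 for JUNB without replicate 2. Its prior degrees of freedom were then infinite, so calls of these fits ignored each gene's own spread. The FOS family log2 ratio ranged from 0.30 to 0.40. The other 22 named genes kept their direction in every alternative run, but not their calls: limma-trend lost 3 with no filter (NRL, KLF4 and DET1), 2 with a pseudocount of 0.1 (NRL and DET1), 11 and 10 without DMSO replicates 1 and 2, and all 22 without AMF replicate 1 and without AMF replicate 2. Leaving out a DMSO library cost voom 1 (replicate 1) and 3 (replicate 2) of these calls, and leaving out an AMF library cost it 16 (replicate 1) and 17 (replicate 2). All 22 calls held with the deposited values, library totals, a mean of at least 10, voom and the replicate block.

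With 2 libraries a group, the JUNB call turns on a single library, and BATF3, at 2 to 10 reads, is beyond what this depth can resolve.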
